A study of Mus musculus with 2 samples.

Results

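The results below concern Mir21a and the 4 genes of the mir-29 family, Mir29a, Mir29b-1, Mir29b-2 and Mir29c, in the embryonic mouse heart. These 5 genes were taken by their GENCODE M21 symbols from 1973 microRNA gene rows, and all 5 were found. RNA of microRNA size had been sequenced from whole hearts of the mouse strain B6NCrl at embryonic day 12.5, in 1 group of 2 biological replicates with 1 library each. Tissue of both sexes was pooled, no allele or treatment is named, and both replicates carry the same donor label. The design therefore holds no contrast between conditions, and the p-values below measure only differences between 2 libraries.

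A microRNA is cut from a hairpin in a longer transcript, and each arm of the hairpin, named 5p or 3p, can give a mature RNA. Bases 2 to 8 of the mature RNA, the seed, pair with messenger RNAs that are then repressed. miR-21 is made in many cell types and is known for its rise in fibroblasts of the diseased adult heart, where it promotes fibroblast survival and scarring. The miR-29 family is known for the opposite role, since its members repress messenger RNAs of collagens, elastin and fibrillin. The series measured no messenger RNA, so the levels below are those of the microRNA genes alone.

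The 3p sequences of the mir-29 family are shown first because reads of these sequences can tell the members apart only where they differ. They are RefSeq sequences of GRCm38.p6, written 5′ to 3′, with the seed in capitals.
miR-29a-3p (Mir29a): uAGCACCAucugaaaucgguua
miR-29c-3p (Mir29c): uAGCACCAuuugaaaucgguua
miR-29b-3p (Mir29b-1 and Mir29b-2): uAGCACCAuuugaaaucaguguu
All 4 genes carry the seed AGCACCA on the 3p arm, and no other gene of the tables with a RefSeq mature sequence carries it. miR-29a-3p and miR-29c-3p differ by 1 substitution, C10U, with positions counted from 1 at the 5′ end and the first-named sequence's base written first. miR-29c-3p and miR-29b-3p share their first 17 bases and then differ by G18A, U21G and A22U over the 22 positions compared. The sequence of miR-29b-3p is the same from Mir29b-1 and from Mir29b-2, and it was found whole in 2 M21 hairpins. The tables set reads with several matching places apart in a row of their own, outside the gene counts. How the counter chose those reads is not stated, and it is inferred from that row and from the shared sequence that a read lying within miR-29b-3p was counted to no gene.

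The 5p sequences of the mir-29b genes are a part of the hairpins that tells these 2 genes apart.
miR-29b-1-5p: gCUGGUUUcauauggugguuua
miR-29b-2-5p: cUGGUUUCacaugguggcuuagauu
Each was found in 1 M21 hairpin. The longest run from the 5′ end shared with any other M21 hairpin was 10 bases for miR-29b-1-5p and 9 bases for miR-29b-2-5p. Such a run stops at the first mismatch and understates how alike the sequences are. With a shift of 1 base, the sequences shown match at most of their positions, and few bases tell them apart. By the same inference the counts of Mir29b-1 and Mir29b-2 would come from reads that reach distinguishing bases, but the tables do not record the arm of any read.

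Mir21a is shown beside 2 genes with similar names, because near copies could take or hide its reads.
miR-21a-5p (Mir21a): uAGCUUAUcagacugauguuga
miR-21c (Mir21c): uAGCUUAUcagacugguacaa
miR-21b (Mir21b): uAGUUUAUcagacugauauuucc
miR-21a-5p shares its seed with miR-21c and the first 15 bases, after which they differ by A16G, G18A, U19C, U20A and G21A over 21 positions. miR-21b differs from miR-21a-5p by C4U within the seed, and by G18A, G21U and A22C. Each of these sequences lies in 1 M21 hairpin. Mir21c had 0 counts in both libraries and Mir21b had 0 and 1, against 126987 and 148147 counts for Mir21a, so few reads were credited to the similar genes. The limit that a count of 0 allows, taken as 3 counts in the library, was 0.670 CPM (counts per 1000000 sense counts of all genes) in the first library and 0.568 CPM in the second.

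The 5 genes lie at 3 places of the genome, given on GRCm38 from GENCODE M21. The hairpin of Mir21a (ENSMUSG00000065455.1) spans bases 86584067 to 86584158 of chromosome 11, minus strand, and overlaps a UTR exon of the protein-coding gene Vmp1 on the same strand. That of Mir29a (ENSMUSG00000065610.1) spans bases 31062660 to 31062747 of chromosome 6, minus strand, and overlaps no other annotated gene. Mir29b-1 (ENSMUSG00000065604.1) spans bases 31063023 to 31063093 of the same strand, 275 bases from Mir29a, and overlaps an exon of the lincRNA Gm27019. On the plus strand of chromosome 1, Mir29b-2 (ENSMUSG00000065412.2) spans bases 195037040 to 195037120 and Mir29c (ENSMUSG00000065548.1) bases 195037547 to 195037634, 426 bases apart. This second pair lies in exons of the noncoding gene A330023F24Rik and, on the opposite strand, overlaps a UTR exon of the protein-coding gene Cd46. Each mir-29b gene thus has 1 partner of the family close by on the same strand, and in both pairs the mir-29b gene comes first in the direction of transcription. No antisense count was found at any of the 4 mir-29 genes in either library.

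**Figure D1:**
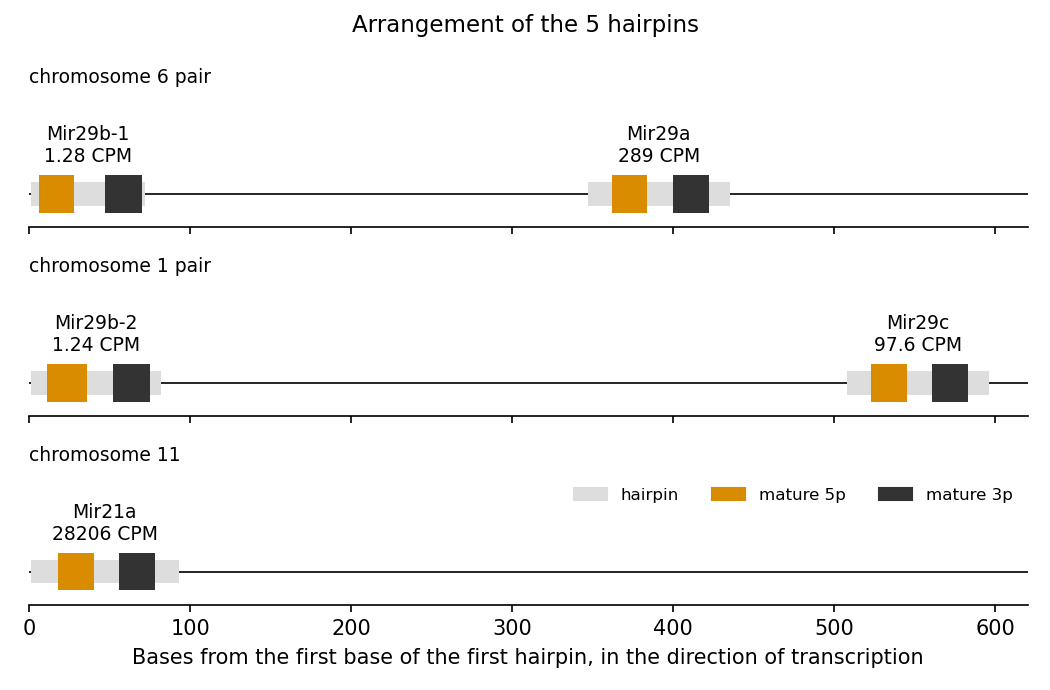
Map of the 3 loci, with distance in bases from the first base of the first hairpin. Grey bars are hairpins, orange and black bars the 5p and 3p mature RNAs, and the mean CPM of each gene (n = 2) stands above it; Mir29b-1 and Mir29b-2, at 1.28 and 1.24 CPM, each lie next to a partner at 289 or 97.6 CPM.

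By sense counts Mir21a was among the highest microRNA genes, and the mir-29 genes with their own mature sequence stood at moderate levels. The 2 mir-29b genes were near the limit of detection. By the inference made above for miR-29b-3p, reads lying within any mature sequence shared by several hairpins would be in no gene's count. Levels, shares and ranks below therefore hold among reads credited to a gene, and do not rank the mature RNAs of the heart. Levels are given as CPM of the sense counts, which numbered 4478599 in replicate 1 and 5279908 in replicate 2. Of the 5 genes, 3 reached 10 CPM in both libraries and all 5 had a count in both. Intervals are 95% exact (Clopper-Pearson) intervals and cover counting error only: copies of 1 molecule made by PCR cannot be recognised in these counts. These are bulk libraries of a whole organ, so fewer cells of a type and less RNA per cell cannot be told apart.

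Mir21a had 126987 counts in replicate 1 and 148147 in replicate 2. These were 28354 CPM (interval 28201 to 28508) and 28059 CPM (interval 27918 to 28199.8), a mean of 28206 ± 209 CPM (SD, n = 2). The libraries thus lay close together, with a coefficient of variation of 0.741% against a median of 6.63% over the 284 genes at 10 CPM or more in both. Mir21a took 2.82% ± 0.0209 (SD, n = 2) of the sense counts and held rank 10 of 712 genes with a count. The gene just above it by mean, Mir351, had 25093 and 31395 CPM, a range that encloses both values of Mir21a, so the order of these 2 genes was not fixed. The gene just below, Mir17, had 22410.1 and 24036 CPM, and its values did not overlap those of Mir21a.

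Mir29a, which differs from Mir29c by a single base of the 3p sequence shown above, had 1267 and 1555 counts. These were 283 CPM (interval 268 to 299) and 295 CPM (interval 280.1 to 309.5), a mean of 289 ± 8.21 CPM (SD, n = 2). Mir29a held rank 126 of 712, and 82.3% of the genes with a count lay below it. Its neighbours in that order, Mir203 (294 ± 14.9 CPM) and Mir196b (289 ± 73.2 CPM), did not differ from it beyond their spread.

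Mir29c, the other gene of the family with a 3p sequence of its own, had 416 and 540 counts. These were 92.9 CPM (interval 84.2 to 102) and 102 CPM (interval 93.8 to 111), a mean of 97.6 ± 6.64 CPM (SD, n = 2). It held rank 179, and its values overlapped those of its neighbours Mir493 (97.9 ± 3.39 CPM) and Mir679 (96.4 ± 3.44 CPM).

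The mir-29b genes had almost no counts. Mir29b-1 had 3 and 10 counts, or 0.670 CPM (interval 0.138 to 1.96) and 1.89 CPM (interval 0.908 to 3.48). Mir29b-2 had 6 counts in each library, or 1.34 CPM (interval 0.492 to 2.92) and 1.14 CPM (interval 0.417 to 2.47). The intervals of the 2 genes overlapped in both libraries, so at this depth no order between them could be seen. They held ranks 416 and 420 of 712, and both overlapped the genes next to them in that order. How much mature miR-29b the tissue held cannot be read from these counts, since where reads of miR-29b-3p were counted was not measured. Reads with several matching places numbered 2503492 and 2677232, or 0.559 and 0.507 per sense count, and the tables do not say from which sequences they came.

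**Figure D2:**
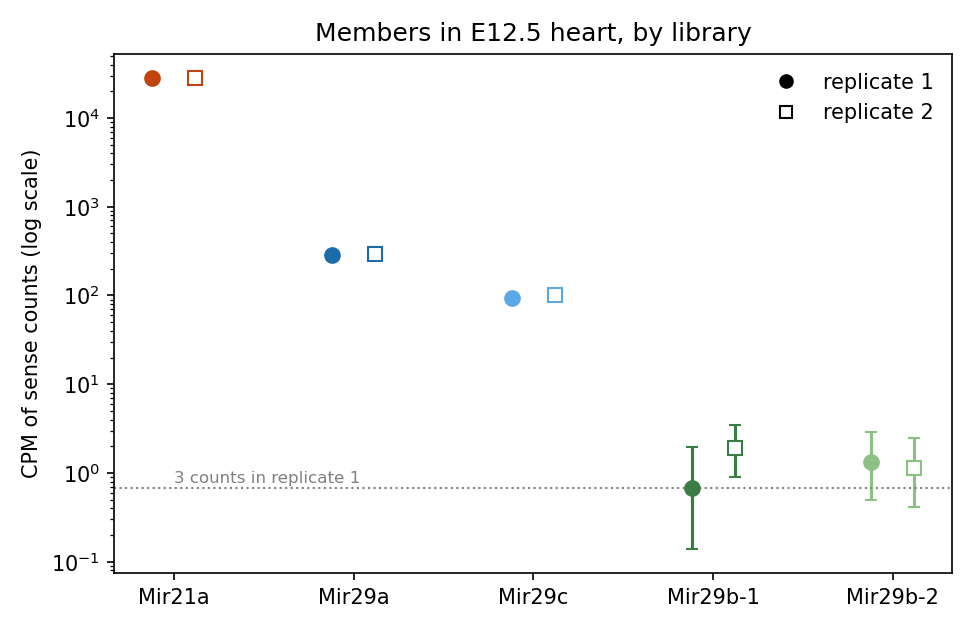
CPM of sense counts on a log scale for each gene in replicate 1 (filled circles) and replicate 2 (open squares), with 95% exact counting intervals, hidden by the symbol where narrow. Mir21a stands near 28206 CPM, Mir29a near 289 and Mir29c near 97.6, while both mir-29b genes lie close to the dotted line, the level of 3 counts in replicate 1.

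**Figure D3:**
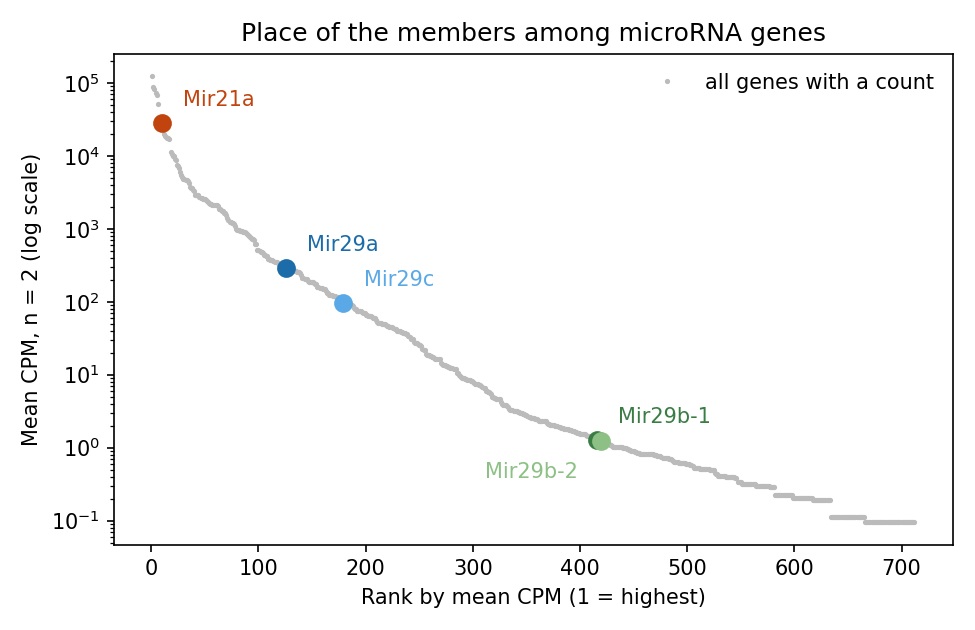
Mean CPM (n = 2, log scale) of the 712 genes with a count, ordered from the highest, with the 5 genes in colour. Mir21a stands at rank 10, Mir29a at 126, Mir29c at 179, and Mir29b-1 and Mir29b-2 at 416 and 420.

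As a family, the 4 mir-29 genes held 1692 counts in replicate 1 and 2111 in replicate 2. This was 378 CPM (interval 360.0 to 396) and 399.8 CPM (interval 383 to 417), or 0.0389% ± 0.00156 (SD, n = 2) of the sense counts. Mir29a gave 74.9% of the family's counts in replicate 1 and 73.7% in replicate 2, and Mir29c gave 24.6% and 25.6%. Both mir-29b genes together gave 9 and 16 counts. The family total is thus the total of Mir29a and Mir29c, and, by the inference above, it leaves out reads of miR-29b-3p.

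Within each library Mir29a exceeded Mir29c by a ratio of counts of 3.05 (interval 2.72 to 3.41) in replicate 1 and 2.88 (interval 2.61 to 3.18) in replicate 2. The mean was 2.96 ± 0.117 (SD, n = 2), so the excess was many times its spread between libraries. The hairpins of both genes are 88 bases long, so the ratio per hairpin base is the same. The difference between the libraries' ratios did not pass (Fisher's exact test, two-sided, p = 0.474, adjusted over 3 ratios 0.474). Most of the family's counts thus came from the chromosome 6 pair, 75.1% and 74.1% in the 2 libraries, nearly all of them from Mir29a. By the inference above, reads of miR-29b-3p from either pair are left out, so these percentages do not give the output of each locus.

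Inside each pair the partner with its own 3p sequence stood far above the mir-29b gene. On chromosome 6 the ratio of counts of Mir29a to Mir29b-1 was 422 (interval 144 to 2051) in replicate 1, with 3 counts for Mir29b-1, and 156 (interval 84.3 to 325) in replicate 2. On chromosome 1 the ratio of Mir29c to Mir29b-2 was 69.3 (interval 31.6 to 190.0) and 90.0 (interval 41.1 to 246). Per hairpin base these ratios were 341 and 125 for the first pair and 63.8 and 82.8 for the second. Mature RNAs are cut from the arms of a hairpin, so counts need not grow with its length. The values per hairpin base are therefore a description and not a correction. The wide intervals come from the few counts of the mir-29b genes, and the ratio of Mir29b-1 to Mir29b-2 itself was 0.500 (interval 0.0809 to 2.34) and 1.67 (interval 0.549 to 5.58). These ratios compare reads credited to genes and do not give the ratio of the mature RNAs.

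Genes whose mature sequence has a second copy ranged widely. Of 916 genes of the tables with a RefSeq mature sequence, 103 had one found whole in more than 1 M21 hairpin, the mir-29b genes among them. No count was found for 46 of these 103 (44.7%) and for 260 of the 813 others (32.0%). A gene was put among the 103 if the sequence of either arm had a second copy, so its counts may come from the other arm. Among genes with a count the median was 27.1 CPM for the 57 with a shared sequence and 2.59 CPM for the 553 others. What a second copy does to a gene's count was not tested. With the genes without a count included, the medians were 0.808 CPM for the 103 and 0.507 CPM for the 813. Of the 57, 9 lay below Mir29b-1 and 8 below Mir29b-2, while of all 103, 55 and 54 did. The mir-29b genes were thus low among the shared genes with a count and near the middle of all of them.

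Between Mir21a and the mir-29 family, the counts of Mir21a were larger by a ratio of 75.1 (interval 71.5 to 78.8) in replicate 1 and 70.2 (interval 67.2 to 73.3) in replicate 2, a mean of 72.6 ± 3.45 (SD, n = 2). Over Mir29a alone the ratio of counts was 97.7 ± 3.50 (SD, n = 2), and 93.5 ± 3.35 (SD, n = 2) per hairpin base, with hairpins of 92 and 88 bases. The value per hairpin base is again a description and not a correction. The ratio of Mir21a to the family differed between libraries with p = 0.0423 in Fisher's exact test (two-sided) and 0.127 adjusted over the 3 ratios, so it did not pass. Different microRNAs are captured with different efficiency when libraries are made, and no spike-in values were used here, so these ratios compare reads. By the inference above, the family total leaves out reads of miR-29b-3p, so the ratio of Mir21a to the family may be too high. By how much was not measured.

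In an exact binomial test of each gene's 2 counts, adjusted by Benjamini-Hochberg over 712 genes, 1 of the 5 members passed an adjusted p of 0.05, against 16.7% of all genes tested (119 of 712) and 41.2% of the genes at 10 CPM or more in both libraries. The test holds counting error alone, so it passes small differences of deeply counted genes. The gene that passed was Mir21a, lower in replicate 2 by a ratio of 0.990 (95% counting interval 0.982 to 0.997, exact binomial adjusted p = 0.0375), and 8.71% of all genes tested passed in that direction. All 19 genes at 10000 CPM or more in both libraries passed this test. The call for Mir21a was lost with TMM scaling, where its log2 ratio turned from −0.02 to 0.01, and with DESeq2 size factors, where it was −0.01. With a 2-fold ratio as a further condition 0 of the 5 members passed, against 0.421% of all genes tested (3 of 712).

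The mir-29 genes did not pass. The ratio of CPM in replicate 2 to replicate 1 was 1.04 for Mir29a (interval 0.966 to 1.12, exact binomial adjusted p = 0.703) and 1.10 for Mir29c (interval 0.967 to 1.25, exact binomial adjusted p = 0.461). Both intervals include a ratio of 1, which does not show that the libraries were alike. On the log2(CPM + 1) scale, replicate 2 minus replicate 1, the differences were 0.06 for Mir29a and 0.14 for Mir29c. Among the 284 genes at 10 CPM or more in both libraries, whose median absolute difference was 0.13, 63 had a smaller one than Mir29a, 146 a smaller one than Mir29c and 21 a smaller one than Mir21a. Mir29b-1, with 3 and 10 counts, had a ratio of 2.83 (interval 0.728 to 16.0, exact binomial adjusted p = 0.492), and Mir29b-2 one of 0.848 (interval 0.227 to 3.17, exact binomial adjusted p = 1.00).

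**Figure D4:**
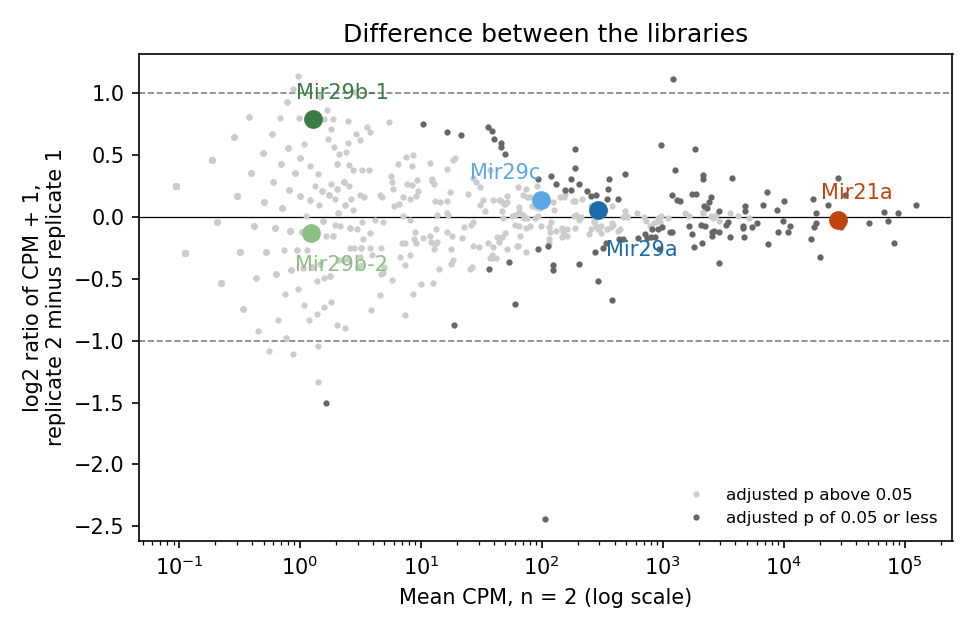
Difference between the libraries on the log2(CPM + 1) scale against mean CPM (log scale) for 712 genes, with genes at an adjusted p of 0.05 or less in dark grey and dashed lines at a 2-fold ratio. Mir21a, Mir29a and Mir29c lie near 0, at −0.02, 0.06 and 0.14, and Mir29b-1 lies at 0.79 within the wide scatter of genes with few counts.

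The genes nearest to each member in level over the 2 libraries, by Euclidean distance of log2(CPM + 1), were Mir26b, Mir351 and Mir30e for Mir21a, at distances of 0.14, 0.24 and 0.29. For Mir29a they were Mir374b, Mir224 and Mir675, at 0.08, 0.10 and 0.10. For Mir29c they were Mir679, Mir106a and Mir92b, at 0.05, 0.08 and 0.12. With 2 libraries of 1 tissue this likeness is one of level alone.

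Beside other microRNAs linked to fibrosis or to cardiac fibroblasts, Mir21a stood near the top and the mir-29 genes in the middle and at the bottom. Of 28 genes listed, 27 were found in the tables, with a median of 156 CPM, and 21 of the 27 reached 10 CPM in both libraries. Only 1 of the 27, the cardiomyocyte gene Mir208b at 50918 ± 1313 CPM (SD, n = 2), lay above Mir21a, and 11 lay above Mir29a. Below Mir21a came Mir208a, which like Mir208b is made in cardiac muscle cells, at 9885 ± 159.6 CPM, Mir22 at 8926 ± 506 CPM, Mir18 (listed as Mir18a), of the mir-17-92 cluster, at 3576 ± 44.8 CPM, and Mir214, a microRNA of mesenchyme, at 3455 ± 73.5 CPM. Mir101b stood at 1649 ± 56.0 CPM and Mir101a at 254 ± 11.3 CPM. Mir34a, a target of p53, stood at 191 ± 1.46 CPM. The lowest were Mir133a-1 (1.68 ± 1.11 CPM) and Mir133a-2 (0.981 ± 0.756 CPM), copies of a muscle microRNA, and the mir-29b genes lay between them. Neither Mir133a gene had a RefSeq mature sequence in the table used, so whether their reads fit several places was not tested. As for the mir-29b genes, these low counts do not give the level of the mature RNA.

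Of the same 27 genes, 11 carry a mature sequence found whole in more than 1 M21 hairpin, and these ranged from 3.23 to 616 CPM with a median of 45.7 CPM. The 13 whose mature sequences each lie in 1 hairpin ranged from 4.69 to 50918 CPM with a median of 254 CPM. The remaining 3 had no RefSeq mature sequence in the table used. Mir29a and Mir29c belong with the second set and the mir-29b genes with the first, below its whole range. Between the libraries 8 of the 27 passed the exact binomial test, 3 higher and 5 lower in replicate 2. Over all genes tested 8.01% passed higher and 8.71% lower. Of the 27, 21 reached 10 CPM in both libraries, and 41.2% of all genes at that level passed in either direction. The median log2 ratio of the 27 was 0.06 against 0.002 over all genes with a count.

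**Figure D5:**
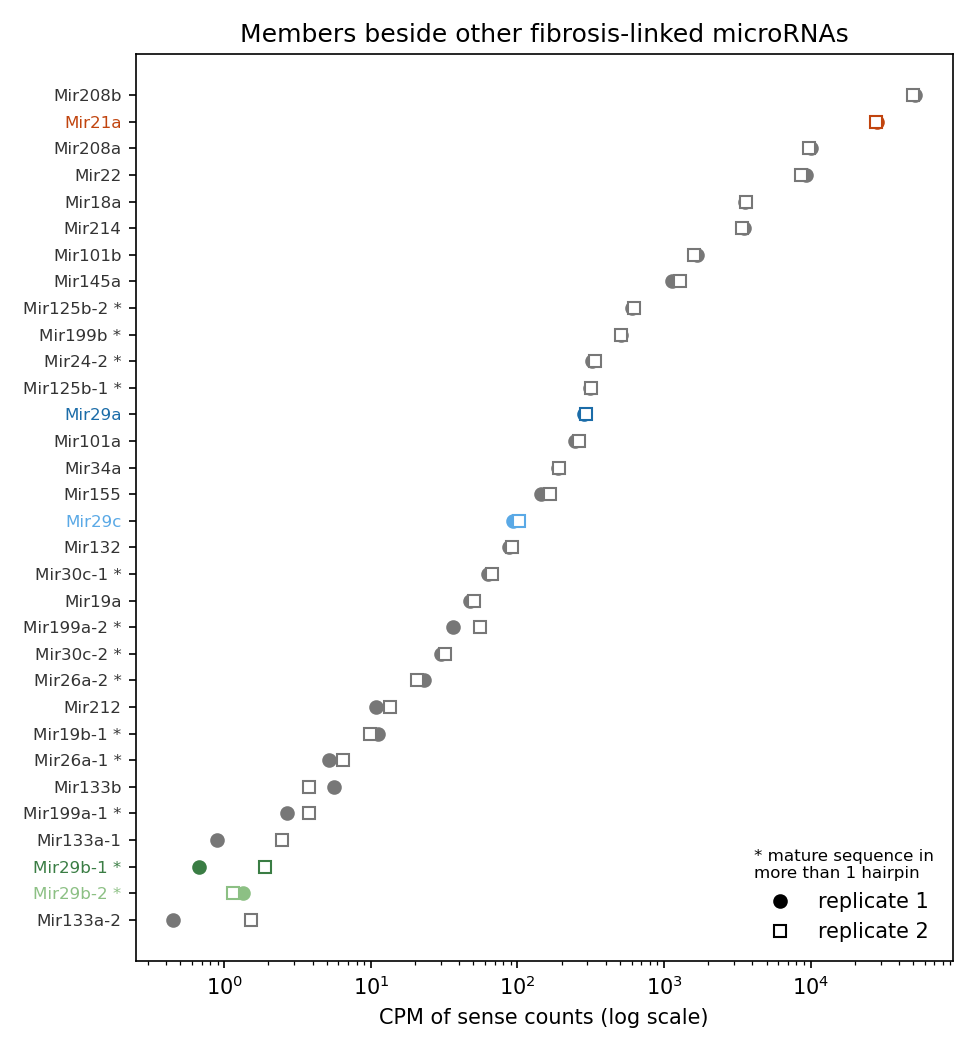
CPM of sense counts (log scale) of the 5 genes, in colour, and of 27 other fibrosis-linked microRNA genes, in grey, in replicate 1 (filled circles) and replicate 2 (open squares). A star marks genes known to carry a mature sequence found in more than 1 hairpin. Mir133a-1, Mir133a-2 and Mir145a had no RefSeq mature sequence and could not be starred. Mir21a lies below Mir208b alone, and the mir-29b genes lie near the lowest genes.

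Markers of heart cells were present. The cardiomyocyte genes Mir208a, Mir208b and Mir499 took 6.29% ± 0.144 (SD, n = 2) of the sense counts. All 6 genes of the smooth muscle and mesenchyme list had counts, with a share of 9.37% ± 0.115 (SD, n = 2). Most of that share was Mir143 alone, at 88442 ± 1103 CPM (SD, n = 2). Of the 6 genes, 5 reached 10 CPM in both libraries. The endothelial gene Mir126a took 6.79% ± 0.123 (SD, n = 2). Markers of other cell types were present as well: epithelial genes summed to 0.0822%, those of red blood cell precursors to 0.137%, white blood cell genes to 0.0316% and the hepatocyte gene Mir122 to 0.0107%, and of 5 neuronal genes 3 had no count. The epithelial and red blood cell precursor sums each exceeded the 0.0389% of the mir-29 family, and Mir451a (1221 ± 638 CPM) and Mir429 (433 ± 38.2 CPM) each lay above Mir29a by mean. The red blood cell precursor share was 0.0926% and 0.181% in replicates 1 and 2, through Mir451a (769.7 and 1671 CPM), while Mir144, the other gene of that list, had 156 and 139.8 CPM. The hepatocyte share was 0.0181% and 0.00324%. Beside these differences the ratio of replicate 2 to replicate 1 was 0.990 for Mir21a, 1.04 for Mir29a and 1.10 for Mir29c, and the part of other cell types in those levels was not tested.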

How the data were processed

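The authors deposited raw counts of reads per microRNA gene, 1 table per library, on mm10 with annotation M4, per the descriptions deposited with the files. Neither aligner nor counter is named (not given in the sources used here). The 3 count columns are unnamed: from their values, column meanings were read as without strand, sense and antisense, and sense counts were used. The 4 rows that name no gene were left out of library sizes. In replicate 1 these rows held 27.1% (several matching places), 18.1% (unmapped) and 6.29% (outside genes) of all reads, and in replicate 2 25.3%, 19.1% and 5.88%.

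Names and positions came from GENCODE M21 (1894 of 1973 rows matched), and mature sequences from RefSeq (GRCm38.p6), in which all 5 members matched; Mir18a was found as Mir18 through RefSeq synonyms. M21 carries later versions of the Mir29b-1 and Mir29b-2 identifiers than the tables. A shared mature sequence is one found whole in more than 1 M21 microRNA hairpin. CPM was taken over all sense counts, with a pseudocount of 1 before log2.

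The 2 libraries were compared by an exact binomial test with Benjamini-Hochberg adjustment over 712 genes. On simulated counts of 712 genes for this comparison, it called 42 of 43 genes changed 2-fold and 45 of 45 changed 4-fold with at least 100 expected counts. The mir-29b genes lie below that depth. At any depth it called 45 of 100 genes changed 2-fold, 60 of 100 changed 4-fold and 2 of 512 unchanged genes. The simulation held counting error alone. TMM, the edgeR 4.0.16 exact test, DESeq2 1.42.0 size factors and other filters, denominators and pseudocounts were alternatives. Tools were R 4.3.3, Python 3.11.15, scipy 1.17.1, pandas 2.3.3, numpy 2.4.6 and matplotlib 3.10.9.

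Named genes were the members, Mir21b, Mir21c, genes sharing a member's seed, the 3 genes nearest in level to each member at 10 CPM or more, and listed fibrosis-linked genes and markers; neighbours in rank were added. Mir6338, which shares the seed of miR-29b-2-5p, had 0 counts. The members and lists were chosen with earlier results of these data known.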

Additional observations from a re-analysis of the deposited data

Results flagged for a closer look

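Reads that fit several places lie outside every gene's count. They made up 27.1% of all reads in replicate 1 and 25.3% in replicate 2, and the identical miR-29b-3p of Mir29b-1 and Mir29b-2 is inferred to be counted there, although the counting rule is not stated. The share that miR-29b-3p holds of them was not measured. With 2 libraries, single outlying samples were not tested.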

How the results depend on the processing

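Of 81 values recomputed under alternatives, 62 kept their direction and call or moved by less than the spread between replicates. Part of these 62 could not come out otherwise, so their number does not measure robustness. Leaving out 1 of 2 libraries always moves a mean by less than its SD. The pseudocount changes neither the binomial test nor the direction of a difference. Scaling by TMM or DESeq2 size factors hardly moves a mean of the 2 libraries. The share of Mir21a was 2.70% with counts taken without regard to strand and 1.39% of all reads, and that of the mir-29 family 0.0372% and 0.0191%, since both alternatives enlarge the denominator. Genes called between the libraries numbered 119, against 2 by the edgeR exact test with a common dispersion and 3 with a 2-fold ratio. That dispersion was estimated from the same 2 libraries taken as 1 group. The differences tested thus set their own error, and few calls by the edgeR exact test follow from this. The 1 member called, Mir21a, was lost to 0 with counts without regard to strand, TMM, DESeq2 size factors, the edgeR exact test and the 2-fold ratio, and stayed at 1 when genes under 10 counts over both libraries were left out. Its log2 ratio was 0.01 with TMM. Leaving out each replicate gave 2.81 to 2.84% for Mir21a, 0.0378 to 0.0400% for the family, 70.2 to 75.1 for their ratio and 2.88 to 3.05 for the ratio of Mir29a to Mir29c. The ratio per hairpin base was chosen after seeing the data. No paired analysis was possible because the series holds 1 group. Depth limits the mir-29b genes, at 3 to 10 counts a library.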
